A study of Homo sapiens with 9 samples.

Results

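The WNT ligands, their receptors and co-receptors, their secreted antagonists, and the TCF/LEF factors and feedback genes of the pathway were examined in the established human cell line MDA-MB-468, derived from a breast adenocarcinoma. Members were taken by gene symbol: the WNT, FZD, SFRP1 to SFRP5 and DKK1 to DKK4 families, and LRP5, LRP6, ROR1, ROR2, RYK, AXIN2, LEF1, TCF7, TCF7L1, TCF7L2, RNF43, ZNRF3, LGR4 and LGR5. This gave 51 of the 56809 genes in the table. Polyadenylated RNA was sequenced in 3 libraries of cells that carried pSicoR, a hairpin vector left empty here (control), in 3 that carried shLMO2-1 and in 3 that carried shLMO2-2. These are short hairpin RNAs, which lower the transcripts they pair with, and both names point to LMO2, a cofactor of transcription with LIM domains. All 9 libraries thus came from a single line that had been infected, and no uninfected cells were analysed here.

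WNT proteins are secreted, lipid-modified ligands. They bind a Frizzled receptor together with LRP5 or LRP6, which stops the breakdown of beta-catenin and lets it act with TCF/LEF factors in the nucleus. Other branches run through ROR1, ROR2 or RYK and do not need beta-catenin. Secreted Frizzled-related proteins bind the ligands, and Dickkopf proteins such as DKK1 bind the co-receptors. RNF43 and ZNRF3 remove Frizzled receptors from the surface unless an R-spondin bound to an LGR receptor holds them back. In the mammary gland, WNT signals take part in duct branching and in the upkeep of basal progenitor cells.

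Library totals lay between 15494486 and 23069456 counts, with the shLMO2-2 libraries the deepest. LMO2 itself was scarce. Its level in CPM, the count scaled to the library total after TMM adjustment of that total, was 1.01 ± 0.781 in control, against 0.189 ± 0.181 with shLMO2-1 and 0.121 ± 0.0721 with shLMO2-2 (SD of 3 libraries). It had 4, 35 and 19 counts in control, 2, 1 and 6 in shLMO2-1, and 1, 4 and 3 in shLMO2-2. Control replicate 1 (0.232 CPM) lay below shLMO2-1 replicate 3 (0.396 CPM), while all shLMO2-2 libraries lay below the controls. The log2 fold change of LMO2 passed the test in shLMO2-2 (−3.02, adjusted p = 0.044) and not in shLMO2-1 (−2.44, adjusted p = 0.0906). It was below 0 in every alternative, but its call in shLMO2-2 was lost on leaving out control replicate 2 (0.138) or 3 (0.103), shLMO2-1 replicate 1 (0.062) or 2 (0.0624), or shLMO2-2 replicate 1 (0.132), 2 (0.102) or 3 (0.127), and with limma-voom (0.0928) or only the groups compared (0.062). In shLMO2-1 LMO2 passed without control replicate 1 (0.0268) and without a filter on low counts (0.0253). Of 9 genes expressed by basal-like breast carcinoma cells (KRT5, KRT14, KRT17, KRT6A, EGFR, CDH1, EPCAM, KRT8 and KRT18), all had at least 1 CPM. Their summed level was 12690 to 13900 CPM in control, 14810 to 15760 in shLMO2-1 and 14150 to 15730 in shLMO2-2. EGFR gave the most to this sum, with a mean of 6321 CPM over the 9 libraries. The luminal gene PGR was at 0 in every library, and 4 of 5 luminal genes had at least 1 CPM, with sums of 117.2 to 126.8, 119.1 to 122.1 and 115.1 to 127.2 CPM in the same order. Markers of other cells were low: 1 of 7 fibroblast genes (COL3A1, LUM and POSTN at 0), 3 of 6 endothelial genes and 1 of 5 blood cell genes (CD3E and HBB among those at 0) reached 1 CPM. In the same order of groups, their sums were 9.79 to 14.2, 12.4 to 17.1 and 14.4 to 16.5 CPM for fibroblasts. The sums were 7.17 to 14.1, 13.6 to 19.4 and 8.63 to 11.3 CPM for endothelial cells, and 0.899 to 1.51, 1.99 to 3.69 and 2.74 to 2.88 CPM for blood cells. The part of these shifts in the results was not tested. In bulk RNA, fewer cells of a type and less RNA per cell cannot be told apart. Nothing in the labels says whether the 3 libraries of a group came from separate cultures, so p-values measure only the spread between these libraries.

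Of the 51 members, 31 had a mean of at least 1 CPM over the 9 libraries and 20 had less. The nearest below that level were WNT2B (0.656 CPM) and FZD8 (0.581 CPM), and the nearest above were WNT10B (1.23 CPM) and WNT3 (2.12 CPM). A total of 12 members had no count in any library: WNT7A, WNT8A, WNT9B, WNT16, FZD10, SFRP2, SFRP4, SFRP5, DKK2, DKK4, ROR2 and LGR5. WNT1, WNT2, WNT8B, LEF1 and DKK3 had at most 5 counts in a library. The filter on low counts passed 34 members, among them WNT2B, FZD8 and WNT11 with means under 1 CPM. LGR5 and LEF1, both textbook beta-catenin target genes, therefore could not be compared.

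Levels of different genes were compared per kilobase of transcript, as CPM divided by the median length of the gene's protein-coding transcripts. WNT6 led the ligands at 94.96 CPM per kilobase and made up 56.1% of the summed ligand level, ahead of WNT7B at 55.1, WNT4 at 6.48 and WNT9A at 4.93. The other ligands of at least 1 CPM, WNT5B, WNT10A, WNT3A, WNT10B, WNT3 and WNT5A, lay between 0.354 and 2.39 CPM per kilobase. FZD6 held 52.2% of the Frizzled level at 32.6 CPM per kilobase. Behind it came FZD2 at 9.40, FZD7 at 6.27, FZD1 at 3.89, FZD5 at 3.52, FZD4 at 2.46, FZD3 at 2.12 and FZD9 at 2.06. LRP5 stood at 27.7 against 5.13 for LRP6. Among the non-Frizzled receptors, RYK stood at 32.6 and ROR1 at 14.3 CPM per kilobase.

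A single secreted Frizzled-related protein, SFRP1, was expressed, at 67.9 CPM per kilobase the second highest level of all members. DKK1 (23.2 CPM per kilobase) was likewise the only Dickkopf gene of at least 1 CPM. TCF7L1 led the TCF/LEF factors at 28.0, before TCF7 at 18.5 and TCF7L2 at 6.27 CPM per kilobase. LGR4 stood at 23.4, ZNRF3 at 12.4, AXIN2 at 4.97 and RNF43 at 1.63. Each of these roles was thus held by at least 1 gene of at least 1 CPM. With the longest transcript as the length, WNT6 and SFRP1 stayed first and second, WNT7B moved from the third to the fifth place, and ZNRF3 moved from place 12 to place 16.

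**Figure D1:**
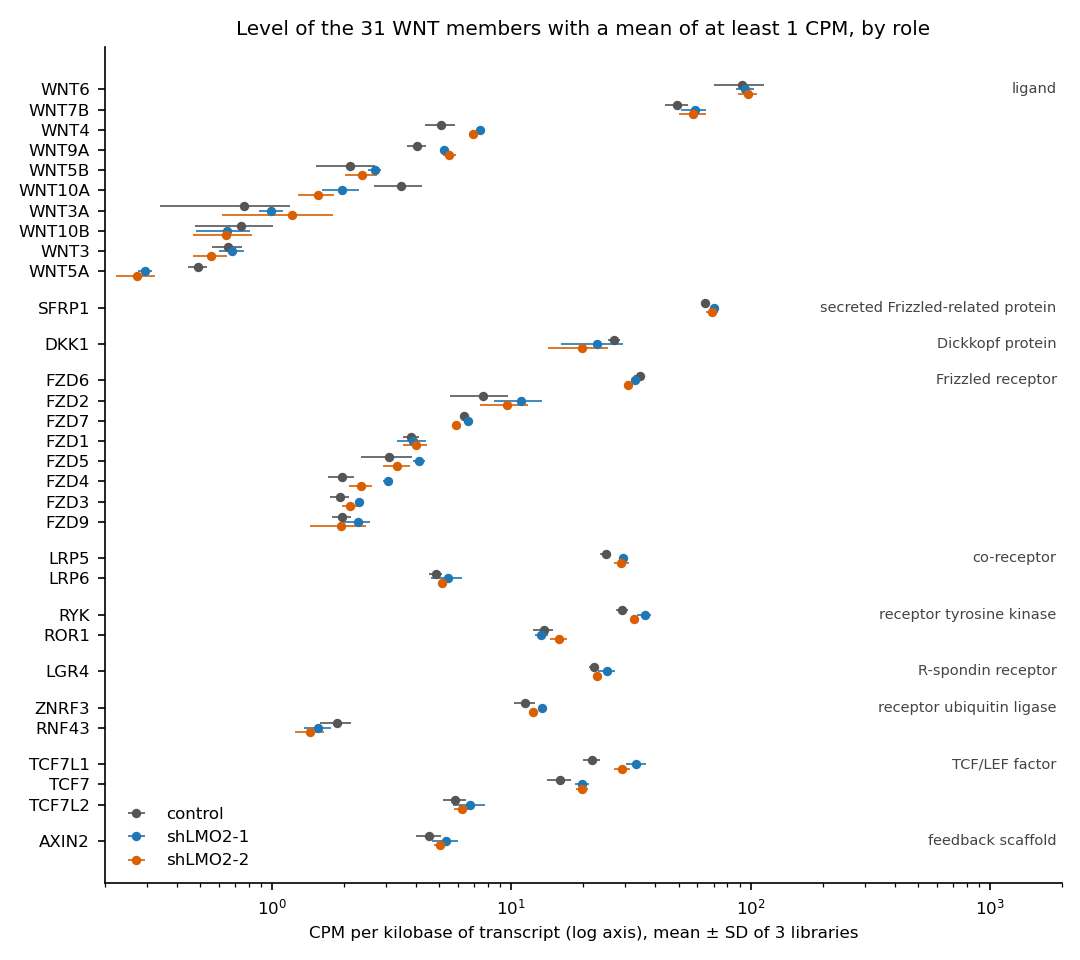
Level of the 31 members with a mean of at least 1 CPM, in CPM per kilobase of transcript on a log axis, as the mean ± SD of 3 libraries for control (grey), shLMO2-1 (blue) and shLMO2-2 (orange), ordered by role and by level. WNT6, SFRP1 and WNT7B stand highest in all 3 groups, and the order of the ligands from 94.96 to 0.354 CPM per kilobase spans far more than the shifts between the groups.

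Genome sequence just before the start of genes was read for members in the RefSeq table of promoters (GRCh38.p14), which matched 35 of the 51 members with 42 starts. Windows are printed for the 250 bases before the start, 5′ to 3′ on the gene's strand. They are those of WNT4, WNT9A and TCF7L1, which were among the members called in both hairpins, and of WNT6. WNT6 is the most abundant ligand and the neighbour of WNT10A. Capitals mark an E-box (CANNTG), the motif that complexes of LMO2 with basic helix-loop-helix factors are known to bind beside GATA sites. The positions are chr1:22143098-22143347 (minus strand) for WNT4, chr1:227947933-227948182 (minus strand) for WNT9A, chr2:85133142-85133391 (plus strand) for TCF7L1 and chr2:218859555-218859804 (plus strand) for WNT6. The starts are those of RefSeq, and the RefSeq start of WNT4 lies inside the span that GENCODE 29 gives the gene, downstream of its outermost start.
WNT4: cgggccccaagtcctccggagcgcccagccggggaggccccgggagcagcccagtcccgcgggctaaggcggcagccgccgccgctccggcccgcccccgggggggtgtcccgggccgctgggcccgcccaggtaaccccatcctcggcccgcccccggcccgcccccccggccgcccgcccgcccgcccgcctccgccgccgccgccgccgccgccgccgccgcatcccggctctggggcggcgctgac
WNT9A: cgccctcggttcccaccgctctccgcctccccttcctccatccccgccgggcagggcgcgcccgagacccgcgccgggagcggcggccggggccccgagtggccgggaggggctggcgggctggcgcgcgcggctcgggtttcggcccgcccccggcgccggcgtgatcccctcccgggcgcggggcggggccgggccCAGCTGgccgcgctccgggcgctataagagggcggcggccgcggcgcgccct
TCF7L1: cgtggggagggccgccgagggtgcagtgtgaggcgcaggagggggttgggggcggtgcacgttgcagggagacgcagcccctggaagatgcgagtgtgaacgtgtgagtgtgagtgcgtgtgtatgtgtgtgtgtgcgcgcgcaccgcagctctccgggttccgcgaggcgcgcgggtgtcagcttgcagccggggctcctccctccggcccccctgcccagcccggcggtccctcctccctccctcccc
WNT6: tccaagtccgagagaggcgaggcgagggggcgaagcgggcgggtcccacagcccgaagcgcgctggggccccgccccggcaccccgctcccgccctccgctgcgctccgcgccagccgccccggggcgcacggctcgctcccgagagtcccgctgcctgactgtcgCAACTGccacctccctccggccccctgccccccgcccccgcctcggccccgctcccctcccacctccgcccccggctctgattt
The WNT4 window is 86.8% G and C and the WNT9A window 84.4%, against 79.2% for WNT6 and 72.0% for TCF7L1. WNT4 and TCF7L1 hold no E-box in these windows, and WNT9A and WNT6 hold 1 each.

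Over all 42 member windows, the median share of G and C was 68.4%, against 58.0% over all windows in the table. An E-box was found in 20 of 42 windows (47.6%), against 61.8% of all 35116 windows of the same length. A GATA site (AGATAA or TGATAA, and the same ending in G, AGATAG or TGATAG) was found in 2 of 42 (4.76%), against 22.3% of all. A TCF/LEF site (CTTTGAA or CTTTGAT) was found in 1 of 42 (2.38%), against 5.94%. All motifs were read on both strands, and matches of different motifs may overlap. These are matches of letters only, and the windows of all genes were not matched to the members in G and C content. AXIN2, ZNRF3, LGR5, SFRP1, WNT7B, FZD6 and LRP6 are among the members without a window, so their sites were not read. The single TCF/LEF match lies 89 to 95 bases before the start of DKK1, at chr10:52314176-52314202 (plus strand), and is printed with its surroundings because DKK1 is a textbook target of beta-catenin.
DKK1: cctcccagcgCTTTGAAatcccatccc
The capitals mark the match.

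Among the ligands, WNT4 and WNT9A rose and WNT10A fell in both hairpins, and WNT5A fell in shLMO2-2 and in the mean of both. WNT4, a ligand of mammary duct branching downstream of progesterone (chromosome 1, 22117305 to 22143969, minus strand, GENCODE 29, GRCh38), stood at 17.7, 22.9 and 18.1 CPM in control replicates 1 to 3. It stood at 27.7, 29.5 and 28.4 CPM in shLMO2-1, and at 26.1, 27.3 and 26.5 CPM in shLMO2-2. All 6 hairpin libraries lay above all 3 controls, among which replicate 2 was the highest. WNT4 was 1.45-fold higher in shLMO2-1 (log2 0.54, SE 0.104, adjusted p = 0.0111) and 1.36-fold higher in shLMO2-2 (log2 0.44, SE 0.104, adjusted p = 0.026). WNT9A, a ligand known from joint formation (chromosome 1, 227918656 to 227947898, minus strand), stood at 14.3, 16.96 and 16.8 CPM in control, at 20.2, 21.7 and 20.6 in shLMO2-1, and at 21.1, 21.2 and 23.5 in shLMO2-2. Again every hairpin library lay above every control. The rise was 1.30-fold in shLMO2-1 (log2 0.38, SE 0.0993, adjusted p = 0.0397) and 1.37-fold in shLMO2-2 (log2 0.45, SE 0.098, adjusted p = 0.0193).

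WNT10A, a ligand of teeth and skin appendages (chromosome 2, 218880363 to 218899581, plus strand), moved the other way. It stood at 6.55, 10.2 and 9.57 CPM in control, at 4.89, 4.16 and 5.93 in shLMO2-1, and at 3.17, 4.36 and 4.36 in shLMO2-2. The groups did not overlap, although control replicate 1 lay close to shLMO2-1 replicate 3. WNT10A was 1.76-fold lower in shLMO2-1 (log2 −0.82, SE 0.213, adjusted p = 0.0382) and 2.22-fold lower in shLMO2-2 (log2 −1.15, SE 0.212, adjusted p = 0.00881). WNT5A, which signals mainly without beta-catenin (chromosome 3, 55465715 to 55490539, minus strand), was scarcer, with 29 to 60 counts per library. Its level was 3.07, 2.67 and 3.17 CPM in control, 1.69, 1.76 and 1.91 in shLMO2-1, and 1.96, 1.35 and 1.66 in shLMO2-2. All 6 hairpin libraries lay below all 3 controls. WNT5A was 1.79-fold lower in shLMO2-2 (log2 −0.84, SE 0.227, adjusted p = 0.044), and its log2 fold change in shLMO2-1 was −0.73 (SE 0.232, adjusted p = 0.0768).

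The calls of WNT4, WNT9A and WNT10A in the mean of both hairpins held in every alternative run (log2 0.49, 0.41 and −0.99, adjusted p = 0.00684, 0.0119 and 0.00575), but single-hairpin calls of ligands depended on single libraries. The WNT9A call in shLMO2-1 was lost on leaving out any of the 9 libraries (adjusted p 0.0508 to 0.133), as was the WNT5A call in shLMO2-2 (0.0547 to 0.142). WNT5A also lost its call in the mean without control replicate 1 (0.064) or 3 (0.0974). WNT9A in shLMO2-2 was lost without shLMO2-2 replicate 2 (0.058) or 3 (0.0805). WNT4 in shLMO2-1 was lost without shLMO2-1 replicate 2 (0.0511). In shLMO2-2 it was lost without control replicate 1 (0.0586) or 3 (0.0959) or shLMO2-2 replicate 1 (0.064), 2 (0.0953) or 3 (0.0794). WNT10A in shLMO2-1 was lost without control replicate 2 (0.109) or 3 (0.118), shLMO2-1 replicate 1 (0.104), 2 (0.134) or 3 (0.0546), or shLMO2-2 replicate 2 (0.0577). Fitting only the groups compared ended the calls of WNT10A in shLMO2-1 (0.0637), WNT4 in shLMO2-2 (0.0652), WNT9A in both (0.0848 and 0.0503) and WNT5A in shLMO2-2 (0.0815). Leaving out the filter on low counts ended the calls of WNT9A in shLMO2-1 (0.0648) and WNT5A in shLMO2-2 (0.0823).

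**Figure D2:**
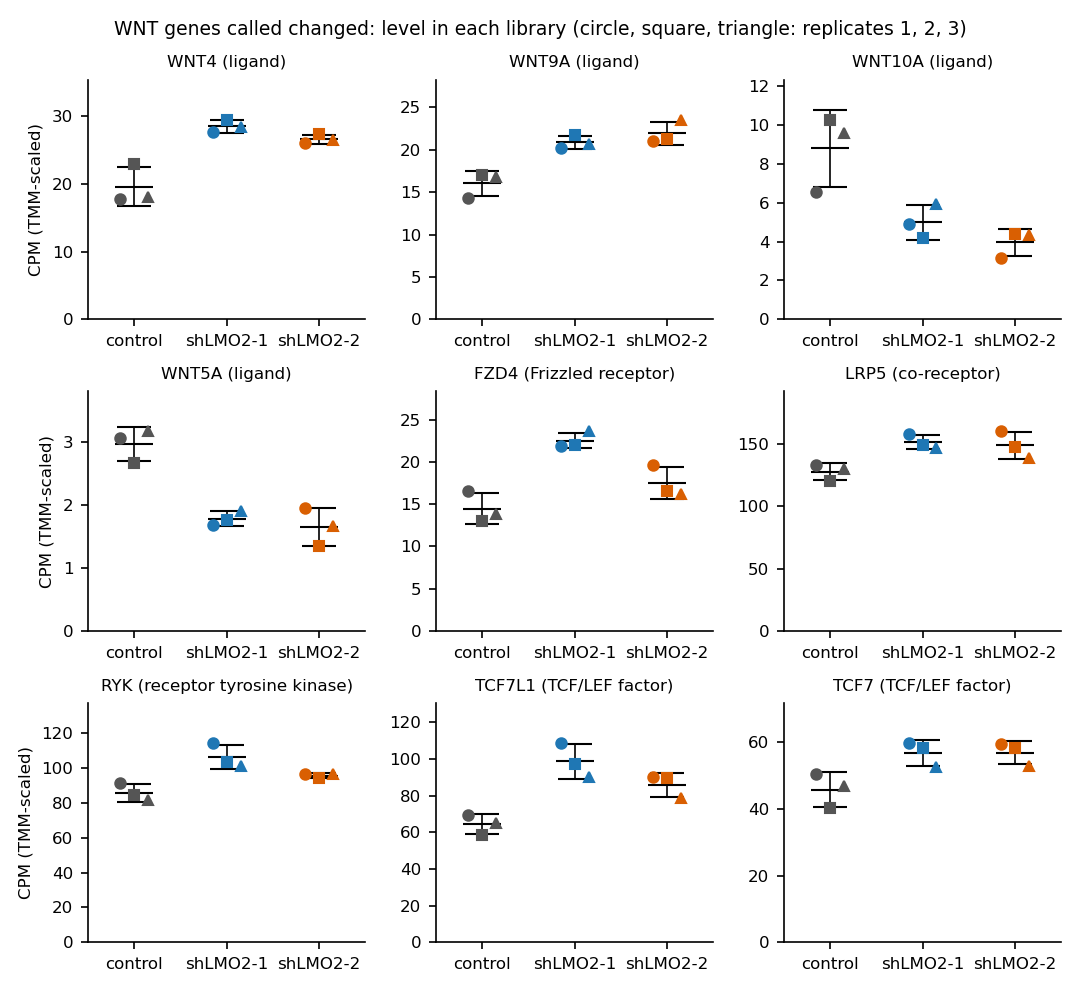
CPM (TMM-scaled) of the 9 members called changed in at least 1 contrast, in each of the 9 libraries, with the bars giving the mean ± SD of 3 libraries and each axis starting at 0. The hairpin libraries of WNT10A and WNT5A lie below all controls, those of WNT4, WNT9A, LRP5, RYK, TCF7 and TCF7L1 lie above all controls, and those of FZD4 overlap the controls in shLMO2-2.

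The 2 most abundant ligands did not pass the test in either hairpin. WNT6 stood at 114, 179 and 178 CPM in control, at 147, 163 and 175 in shLMO2-1, and at 154, 161 and 183 in shLMO2-2, so control replicate 1 was the lowest of all libraries. Its log2 fold change was 0.04 in shLMO2-1 and 0.08 in shLMO2-2 (adjusted p = 0.912 and 0.794), and the sign turned in each hairpin without control replicate 1 (−0.15 and −0.12). WNT7B averaged 110 ± 12.2 CPM in the controls, 131 ± 15.4 with shLMO2-1 and 129 ± 16.4 with shLMO2-2 (SD of 3 libraries). Its log2 fold changes of 0.24 and 0.23 did not pass (adjusted p = 0.237 and 0.261). WNT7B passed in the mean of both (log2 0.24) without a filter on low counts (adjusted p = 0.0314). With the replicate number as a block, it passed in both hairpins (0.0203 and 0.0254) and in the mean (0.00933). Among the scarce ligands, WNT3A stood at 0.928, 2.41 and 3.38 CPM in control, 2.64, 2.81 and 3.30 in shLMO2-1, and 2.61, 2.51 and 5.57 in shLMO2-2, with wide overlap. WNT3 (2.20 ± 0.311, 2.29 ± 0.272 and 1.87 ± 0.301 CPM), WNT5B (3.83 ± 1.06, 4.87 ± 0.284 and 4.31 ± 0.644) and WNT10B (1.35 ± 0.488, 1.18 ± 0.299 and 1.17 ± 0.325) were not called either. The summed ligand level was 159.7 ± 29.3 CPM per kilobase in control, 173.5 ± 15.6 in shLMO2-1 and 174.8 ± 15.7 in shLMO2-2.

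WNT6 and WNT10A are neighbours on the plus strand of chromosome 2. WNT6 lies at 218859821 to 218874233, and 6129 bases separate it from WNT10A. The log2 ratio of WNT10A to WNT6 within a library, which does not depend on the scaling between libraries, was −4.12, −4.13 and −4.22 in control. It was −4.91, −5.29 and −4.88 in shLMO2-1 and −5.59, −5.21 and −5.39 in shLMO2-2. Control replicate 1 was the lowest control for both genes, so the 3 control ratios differed by far less than the levels did. All 6 hairpin libraries lay below the controls, with a difference in the mean log2 ratio of −1.06. WNT9A and WNT3A, 59152 bases apart on opposite strands of chromosome 1, gave a difference of −0.24 in their log2 ratio. Both pairs were chosen after the values were seen, so the ratios are given as a description with no test.

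Among the receptors, FZD4 and RYK rose in shLMO2-1 and LRP5 rose in the mean of both hairpins. FZD4, a receptor of WNT ligands and of Norrin in retinal vessels (chromosome 11, 86945679 to 86955391, minus strand), stood at 16.5, 13.0 and 13.8 CPM in control. Its level was 21.9, 22.04 and 23.6 CPM in shLMO2-1 and 19.7, 16.5 and 16.2 CPM in shLMO2-2. All shLMO2-1 libraries lay above all others, whereas those of shLMO2-2 overlapped the controls. FZD4 was 1.56-fold higher in shLMO2-1 (log2 0.64, SE 0.118, adjusted p = 0.00875), a call that held in every alternative. In shLMO2-2 its log2 fold change was 0.28 (SE 0.117, adjusted p = 0.173), and the change from shLMO2-1 to shLMO2-2 did not pass (−0.37, SE 0.116, adjusted p = 0.249). The call in the mean (0.46, adjusted p = 0.0166) was lost without control replicate 2 (0.0609) or 3 (0.0738). FZD4 shares 1399 exonic bases with PRSS23, so reads there may be counted for either. PRSS23 averaged 99.0 ± 8.60 CPM in the controls, 125.8 ± 15.5 with shLMO2-1 and 97.7 ± 10.2 with shLMO2-2 (log2 0.35 and −0.02, adjusted p = 0.0704 and 0.934).

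RYK, a WNT receptor with an inactive kinase domain (chromosome 3, 134065303 to 134250744, minus strand), stood at 91.1, 84.3 and 81.5 CPM in control, 114, 103 and 101 in shLMO2-1, and 96.3, 93.9 and 96.4 in shLMO2-2. Each hairpin library exceeded each control. RYK was 1.24-fold higher in shLMO2-1 (log2 0.31, SE 0.0695, adjusted p = 0.0213), with a log2 fold change of 0.16 in shLMO2-2 (SE 0.0693, adjusted p = 0.183). LRP5, the co-receptor also known for its control of bone mass (chromosome 11, 68312609 to 68449275, plus strand), stood at 133, 120 and 130 CPM in control, 158, 150 and 147 in shLMO2-1, and 160, 148 and 139 in shLMO2-2. The 6 hairpin libraries all lay above the controls by a narrow margin. LRP5 rose 1.18-fold in the mean of both hairpins (log2 0.23, SE 0.0618, adjusted p = 0.0323), with log2 fold changes of 0.25 and 0.22 in the single hairpins (adjusted p = 0.057 and 0.0786). Its near copy LRP5L, at 2.53 ± 0.421, 1.53 ± 0.0908 and 1.09 ± 0.56 CPM, had log2 fold changes below 0 (−0.71 and −1.21, adjusted p = 0.265 and 0.0693).

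The RYK and LRP5 calls depended on the scaling and on single libraries. Scaling by total counts alone ended the calls in the mean for RYK (adjusted p = 0.0815) and LRP5 (0.0952). RYK in shLMO2-1 was lost without control replicate 2 (0.0584) or 3 (0.088) or shLMO2-1 replicate 1 (0.0813) or 2 (0.0612), and on fitting only the groups compared (0.0681). In the mean, RYK was lost without control replicate 2 (0.0783) or 3 (0.131), shLMO2-1 replicate 1 (0.0534) or 2 (0.0569), or shLMO2-2 replicate 1 (0.0643), 2 (0.0649) or 3 (0.0666). LRP5 was lost without control replicate 2 (0.105) or 3 (0.0858), shLMO2-1 replicate 1 (0.0644), 2 (0.0689) or 3 (0.0513), or shLMO2-2 replicate 1 (0.0695) or 2 (0.0731). It gained a call in shLMO2-1 without control replicate 1 (0.0483), and in both hairpins with DESeq2 (0.0191 and 0.0412).

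The remaining receptors did not pass the test in any contrast. FZD6, the most abundant Frizzled and a receptor of planar polarity, stood at 133, 120 and 130 CPM in control, 121, 123 and 122 in shLMO2-1, and 112, 113 and 117 in shLMO2-2. The shLMO2-2 libraries lay below the others, with a log2 fold change of −0.16 (adjusted p = 0.117), against −0.07 in shLMO2-1 (adjusted p = 0.536). FZD2, a receptor used with WNT5A, stood at 16.1 ± 4.37, 23.2 ± 5.26 and 20.2 ± 4.65 CPM (SD, n = 3), and its groups overlapped. Without a filter on low counts, its log2 fold change in shLMO2-1 (0.52, adjusted p = 0.200) passed the test (adjusted p = 0.00952), as did that in the mean (0.42, adjusted p = 0.0132). With the replicate number as a block, both passed too (0.0123 and 0.0127). In control, shLMO2-1 and shLMO2-2, FZD1 stood at 26.6 ± 2.02, 27.0 ± 3.73 and 27.8 ± 3.21 CPM, and FZD3 at 26.4 ± 2.38, 31.6 ± 1.15 and 29.3 ± 2.16. FZD5 stood at 20.8 ± 4.95, 27.6 ± 1.59 and 22.4 ± 2.84 CPM, FZD7 at 24.5 ± 0.202, 25.6 ± 0.998 and 22.6 ± 0.772, and FZD9 at 4.59 ± 0.423, 5.34 ± 0.697 and 4.56 ± 1.19. The Frizzled receptors summed to 61.2 ± 0.488, 66.2 ± 3.84 and 60.1 ± 2.93 CPM per kilobase. LRP6 stood at 35.8 ± 2.13, 40.2 ± 5.96 and 37.8 ± 0.724 CPM. ROR1, a receptor of WNT5A, stood at 73.1 ± 6.93, 71.7 ± 4.42 and 84.8 ± 6.85 CPM (log2 −0.03 and 0.21, adjusted p = 0.89 and 0.162). LGR4, an R-spondin receptor and the member of that role with counts, stood at 114 ± 5.07, 130 ± 10.8 and 118 ± 0.596 CPM (log2 0.19 and 0.05, adjusted p = 0.13 and 0.694).

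Neither secreted antagonist passed the test. SFRP1 stood at 281, 262 and 264 CPM in control, 288, 297 and 300 in shLMO2-1, and 270, 291 and 302 in shLMO2-2. The shLMO2-1 libraries lay above the controls and those of shLMO2-2 overlapped them. Its log2 fold changes were 0.13 and 0.10 (adjusted p = 0.207 and 0.348). DKK1, an antagonist that is also a target of the pathway, stood at 45.2, 48.8 and 50.9 CPM in control, 27.7, 43.1 and 51.3 in shLMO2-1, and 24.5, 37.8 and 44.3 in shLMO2-2. The shLMO2-2 libraries all lay below the controls, but the libraries of each hairpin group spread far more than those of control. The log2 fold changes were −0.25 and −0.44 (adjusted p = 0.551 and 0.252). Without a filter on low counts, the value in shLMO2-2 passed the test (adjusted p = 0.00614), and so did that in the mean (log2 −0.34, adjusted p = 0.0126). With the replicate number as a block, both passed too (0.0185 and 0.021).

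In the nucleus, TCF7L1 rose in both hairpins and TCF7 rose in the mean of both. TCF7L1, a TCF factor that mostly represses its targets until beta-catenin displaces it (chromosome 2, 85133410 to 85310388, plus strand), stood at 69.6, 58.8 and 65.0 CPM in control. It stood at 109, 97.0 and 90.3 CPM in shLMO2-1 and at 90.2, 89.5 and 78.5 CPM in shLMO2-2, above every control in all 6 libraries. TCF7L1 was 1.53-fold higher in shLMO2-1 (log2 0.62, SE 0.0924, adjusted p = 0.00291) and 1.33-fold higher in shLMO2-2 (log2 0.42, SE 0.092, adjusted p = 0.0201). TCF7, the TCF factor best known from T cells (chromosome 5, 134114711 to 134151865, plus strand), stood at 50.5, 40.2 and 46.7 CPM in control, 59.8, 58.2 and 52.4 in shLMO2-1, and 59.5, 58.1 and 52.9 in shLMO2-2. The hairpin libraries lay above the controls, and both hairpins had the same log2 fold change of 0.31 (adjusted p = 0.0682 and 0.0654). In the mean TCF7 was 1.24-fold higher (log2 0.31, SE 0.0829, adjusted p = 0.0326). TCF7L2 stood at 22.04 ± 2.48, 25.5 ± 3.83 and 23.6 ± 1.73 CPM and was not called. The 3 expressed factors summed to 43.5 ± 4.29, 59.8 ± 5.28 and 55.0 ± 3.86 CPM per kilobase in control, shLMO2-1 and shLMO2-2.

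The TCF7L1 calls in shLMO2-1 and in the mean (log2 0.52, adjusted p = 0.00277) held in every alternative. For shLMO2-2, TCF7L1 lost its call without control replicate 2 (0.0515) or 3 (0.0617) or shLMO2-2 replicate 1 (0.0765) or 2 (0.0892). The TCF7 call in the mean was lost with total counts alone (0.0793), and without control replicate 2 (0.105) or 3 (0.0876), shLMO2-1 replicate 1 (0.0638) or 2 (0.0787), or shLMO2-2 replicate 1 (0.0724) or 2 (0.0787). Both single-hairpin values of TCF7 passed without control replicate 1 (0.0291 and 0.0323) and with DESeq2 (0.033 and 0.032). TCF7 shares 210 exonic bases with SKP1, which stood at 241.9 ± 17.3, 244.8 ± 16.9 and 260.3 ± 7.27 CPM (log2 0.02 and 0.11, adjusted p = 0.917 and 0.394).

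Of the members that beta-catenin is known to induce as feedback genes, AXIN2, RNF43 and ZNRF3 were not called. AXIN2, a scaffold of the beta-catenin destruction complex (chromosome 17, 65528563 to 65561647, minus strand), stood at 13.4, 17.1 and 14.5 CPM in control, 19.97, 17.2 and 15.7 in shLMO2-1, and 17.6, 16.1 and 16.0 in shLMO2-2. Control replicate 2 lay among the hairpin libraries, and the log2 fold changes were 0.23 and 0.14 (adjusted p = 0.278 and 0.512). RNF43 stood at 8.29, 6.15 and 7.77 CPM in control, 7.09, 5.92 and 5.54 in shLMO2-1, and 6.22, 4.83 and 6.16 in shLMO2-2. Its groups overlapped, and the log2 fold changes were −0.26 and −0.37 (adjusted p = 0.404 and 0.211). RNF43 shares 4326 exonic bases with AC004687.2 (mean 0.530 CPM), 1521 with TSPOAP1-AS1 (0.349 CPM) and 143 with SUPT4H1 (70.5 CPM). ZNRF3, which acts like RNF43 on Frizzled receptors, stood at 30.7, 31.4 and 36.8 CPM in control, 37.9, 38.1 and 40.1 in shLMO2-1, and 35.8, 35.9 and 34.3 in shLMO2-2. The shLMO2-1 libraries lay just above the controls, and the log2 fold changes of 0.23 and 0.10 did not pass (adjusted p = 0.122 and 0.513).

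**Figure D3:**
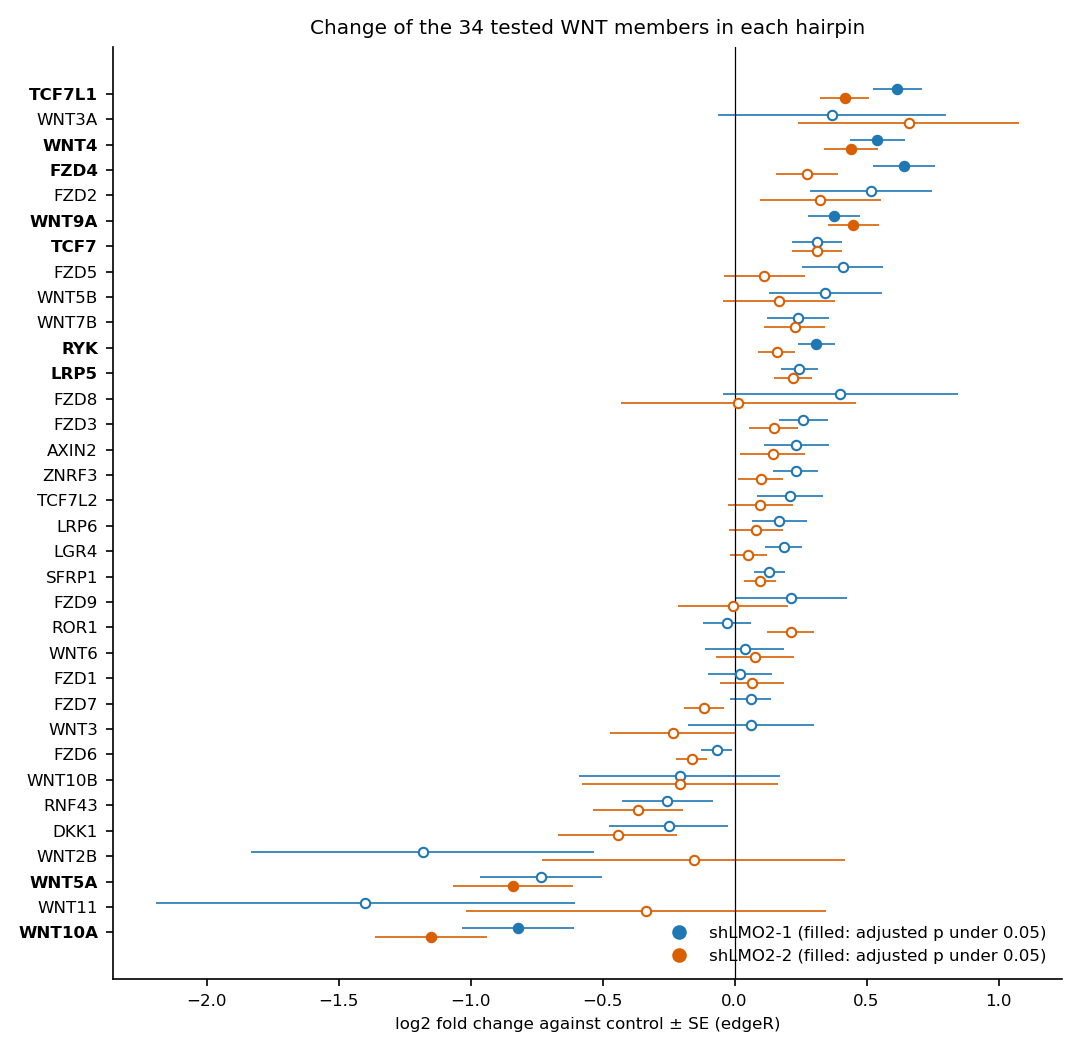
Log2 fold change against control ± SE for the 34 members tested, in shLMO2-1 (blue) and shLMO2-2 (orange), with filled points where the adjusted p was under 0.05 and bold names for members called in any contrast. Both hairpins share the 3 control libraries. The points of TCF7L1, WNT4, WNT9A and WNT10A are filled in both hairpins, and the scarce ligands WNT2B and WNT11 have the widest error bars.

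Counted over the 34 members tested, 6 were called in shLMO2-1 (5 higher, 1 lower), against 8.42% of all 14709 genes tested (4.54% higher and 3.88% lower). In shLMO2-2, 5 members were called (3 higher, 2 lower), against a background of 8.97% (4.94% higher and 4.04% lower). In the mean of both, 9 members were called (7 higher, 2 lower), against 12.4% (6.47% higher and 5.93% lower). The members' shares were thus 17.6%, 14.7% and 26.5%, a description of a list chosen with earlier results known. These counts moved with single libraries. In shLMO2-1, 3 members were called without control replicate 2 or 3 or shLMO2-1 replicate 1, and 2 without shLMO2-1 replicate 2. In shLMO2-2, 3 were called without control replicate 2, 2 without control replicate 3 or shLMO2-2 replicate 1 or 3, and 1 without shLMO2-2 replicate 2, where the share of 2.94% was below the 3.30% of all genes in that fit. In the mean, 5 were called without control replicate 2 and 4 without control replicate 3. Leaving out 1 library at a time, the members' share ran from 5.88% to 23.5%, 2.94% to 11.8% and 11.8% to 26.5% in the 3 contrasts, and that of all genes from 3.63% to 9.33%, 3.30% to 8.26% and 6.31% to 10.6%. The log2 fold change was above 0 for 25, 23 and 24 of the 34 members in these contrasts, against 50.2%, 49.98% and 49.5% of all genes. Its median over the members was 0.21, 0.10 and 0.14, against 0.001, 0.0 and −0.002 over all genes. In 6 members all 6 hairpin libraries lay above all 3 controls, and in 2, WNT10A and WNT5A, they lay below, against 8.12% and 8.59% of all genes. TCF7L1, WNT10A, WNT4 and WNT9A were called in both hairpins, which share the 3 controls. The share of all genes called in both is not given, so their number is not a result about the members.

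Between the hairpins, no member was called by edgeR, DESeq2 or limma-voom (shLMO2-2 against shLMO2-1, smallest adjusted p in edgeR 0.249), against 0.768% of all genes. With edgeR, 3 members had an unadjusted p under 0.05, and the share of all genes with such a p is not given. The log2 fold change was above 0 for 9 of 34 members (26.5%), against 49.8% of all genes. Its median over the members was −0.11, against −0.001 over all genes. For FZD4, WNT4, TCF7L1 and RYK the value was −0.37, −0.10, −0.20 and −0.15 (adjusted p = 0.249, 0.83, 0.485 and 0.479), and for WNT10A it was −0.33 (adjusted p = 0.686). 

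A list of 129 other WNT pathway genes was set beside the members, and 100 of them were tested. In the mean of both hairpins 19 were called, 10 higher and 9 lower, against 12.4% of all genes. In shLMO2-1, 13 were called, against 8.42% of all genes, and in shLMO2-2, 11 were called, against 8.97%. Among 12 genes of ligand secretion and extracellular regulation, 4 fell and none rose. Of 38 genes of the cytoplasm and nucleus, 3 rose and 1 fell. Of 19 textbook beta-catenin targets, 5 rose and 3 fell, and of 31 genes of planar polarity and calcium signalling, 2 rose and 1 fell. These counts stand beside 6.47% of all genes higher and 5.93% lower. The share called in the cytoplasm and nucleus list (10.5%) and in the polarity and calcium list (9.68%) was below the 12.4% of all genes, and that in the secretion list (33.3%) and the target list (42.1%) was above it. The medians of these lists in log2 fold change were −0.01, 0.09, 0.12 and 0.03. Between the hairpins, the log2 fold change had a median of −0.08 over the 100 genes tested. It was above 0 for 6 of 38 genes in the cytoplasm and nucleus list and 7 of 31 in the polarity and calcium list. In the secretion list it was above 0 for 6 of 12, and in the target list for 10 of 19. The lean below 0 was thus not limited to the members.

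EPHB2, JUN and LGR6 were called in both hairpins, and each call held in every alternative. The share of all genes called in both is not given, so their number is not a result about the list. EPHB2, an ephrin receptor and intestinal WNT target, stood at 48.9, 39.2 and 39.7 CPM in control, 70.9, 70.5 and 69.6 in shLMO2-1, and 71.7, 72.5 and 64.0 in shLMO2-2. It rose by 0.72 and 0.70 on the log2 scale (adjusted p = 0.00108 and 0.00152). JUN, a subunit of the AP-1 factor, stood at 162.0, 160.1 and 153.7 CPM in control, 113.6, 126.9 and 131.1 in shLMO2-1, and 117.6, 122.4 and 118.8 in shLMO2-2 (log2 −0.36 and −0.41, adjusted p = 0.0091 and 0.00452). LGR6, an R-spondin receptor and relative of LGR4 and LGR5, stood at 5.57, 5.84 and 8.25 CPM in control, 2.19, 2.46 and 2.37 in shLMO2-1, and 1.74, 2.46 and 1.66 in shLMO2-2. Its log2 fold changes of −1.48 and −1.75 (adjusted p = 0.00315 and 0.00144) were larger in size than those of any member called. In all 3 genes the control and hairpin libraries did not overlap.

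**Figure D4:**
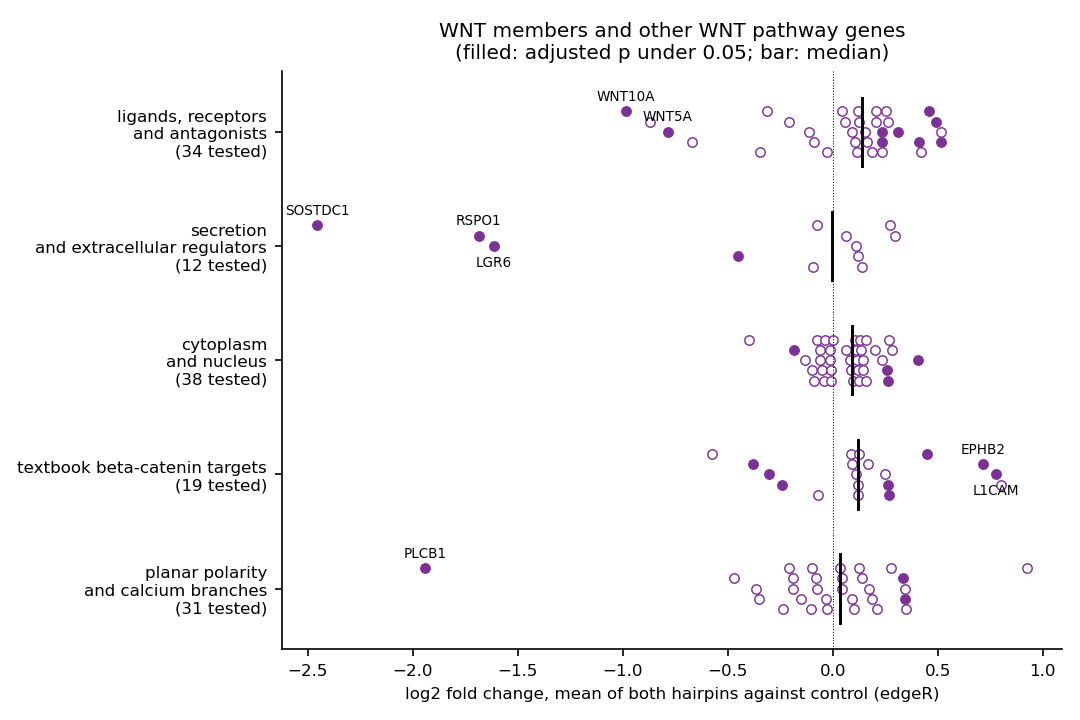
Log2 fold change in the mean of both hairpins against control for the 34 members tested and for the 4 lists of other WNT pathway genes, 1 point a gene, filled where the adjusted p was under 0.05, with a bar at each median. The 4 called genes of secretion and extracellular regulation all lie below 0, with SOSTDC1, RSPO1 and LGR6 farthest out, while called points of the other lists fall on both sides.

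The list also held 2 genes called between the hairpins, both named after their values were seen. WLS, the carrier that brings WNT ligands to the cell surface, stood at 178.8, 207.7 and 191.4 CPM in control, 207.2, 220.7 and 222.9 in shLMO2-1, and 146.2, 153.9 and 163.8 in shLMO2-2. The shLMO2-2 libraries lay below all others. WLS was lower in shLMO2-2 than in shLMO2-1 (log2 −0.49, adjusted p = 0.00918), a call lost without shLMO2-1 replicate 2 (0.0652) or shLMO2-2 replicate 2 (0.0614). Against control, WLS was lower in shLMO2-2 (log2 −0.32, adjusted p = 0.0217). That call was lost without control replicate 2 (0.057) or 3 (0.065) or shLMO2-2 replicate 1 (0.0684) or 2 (0.0729). In shLMO2-1 the log2 fold change of WLS against control was above 0 and did not pass (0.17, adjusted p = 0.17). SOSTDC1, a secreted antagonist of WNT and bone morphogenetic protein signals, had 19, 24 and 22 counts in control, 16, 13 and 15 in shLMO2-1, and 2, 0 and 1 in shLMO2-2. It fell in shLMO2-2 against control (log2 −4.51, adjusted p = 0.00131) and against shLMO2-1 (log2 −4.11, adjusted p = 0.00791). The last of these calls was lost without shLMO2-2 replicate 3 (0.0523), and at so few counts the size of the change depends on the prior count of the fit. NKD1, a feedback inhibitor induced by WNT signals, stood at 17.3, 16.7 and 21.7 CPM in control, 24.8, 24.4 and 23.1 in shLMO2-1, and 26.5, 28.0 and 25.6 in shLMO2-2. It rose in the mean (log2 0.45, adjusted p = 0.012) and in shLMO2-2 (0.52, adjusted p = 0.014), the last lost without shLMO2-2 replicate 2 (0.0673).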

How the data were processed

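Bulk RNA of 9 libraries was analysed, 3 per group, each grouped by the plasmid in its labels. The authors deposited estimated counts per gene symbol, of which 11.67% to 12.81% per library were not whole. The submitters' processing notes name Salmon 0.12, DESeq2 1.22.2 and GRCh38.p12, without their roles. Use of strand is not given in the sources used here, so overlapping genes and close copies are uncertain.

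Counts were rounded and tested with edgeR 4.0.16 (R 4.3.3): TMM scaling, a low-count filter (minimum count 10, minimum total 15) that passed 14708 genes, LMO2 added back, and a quasi-likelihood fit of all 9 libraries with no covariate. The 14709 genes tested hold 99.91% of the counts. Adjusted p-values are Benjamini-Hochberg values over all tested genes, called under 0.05. Both hairpins share the controls. Gene positions and transcript lengths come from GENCODE 29, and promoter windows from RefSeq (GRCh38.p14).

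Members and lists were chosen with earlier results of these data known. The rule for named genes gives levels of every member of at least 1 CPM. It gives values in every library for members called in any contrast, for the most abundant gene of each main role, and for AXIN2, RNF43 and ZNRF3. Called genes outside the members were named where both hairpins called them, or after their values were seen.

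Alternatives were 3 scalings, no filter, at least 10 counts in every library, DESeq2 1.42.0, limma-voom (limma 3.58.1), only the groups compared, a replicate block, and leaving out each library. Lengths by the longest transcript and the ratios of neighbouring genes were added after seeing the data. The code was tested on simulated data.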

Additional observations from a re-analysis of the deposited data

How the results depend on the processing

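Over the 18 alternatives, 1434 of the single-gene values kept their direction and side of the threshold, 95 lost a call, 33 gained one and 7 turned sign, 5 of WNT6 and 2 of ROR1. Leaving out 1 library at a time put the log2 fold change of ROR1 in shLMO2-1 between −0.105 and 0.023 (0.013 without shLMO2-1 replicate 1). It put that of WNT6 between −0.15 and 0.14 in shLMO2-1 (−0.02 without shLMO2-1 replicate 3), between −0.12 and 0.18 in shLMO2-2 (−0.006 without shLMO2-2 replicate 3), and between −0.13 and 0.16 in the mean. The number of members called was 2 to 8 in shLMO2-1, 1 to 4 in shLMO2-2, 4 to 9 in the mean and 0 between the hairpins on leaving out a library. For the pathway list it was 3 to 19, 5 to 13, 11 to 20 and 1 to 3. In these fits 3.63% to 9.33%, 3.30% to 8.26% and 6.31% to 10.6% of all genes were called in the first 3 contrasts. The share of all genes between the hairpins is not given for them, so the last range is not a result about the list. Fitting only the groups compared gave 3 members and 5 pathway genes in shLMO2-1, and 2 members in shLMO2-2. That fit gives no value for the mean. Without a filter, 18 pathway genes were called in shLMO2-2 and 5 between the hairpins, with 1 there when 10 counts were asked of every library and 4 there with DESeq2.

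The replicate numbers were not taken to pair the libraries, since not every same-numbered pair had deviations correlated by over 0.1. The range was −0.0635 to 0.296 over 9 pairs, with all pairs of replicates 1 and of replicates 3 over 0.1 (6 pairs) and none of replicates 2, and 5 of 9 libraries correlated best with their own number. Across groups, every pair of a replicate 1 with a replicate 3 was below 0 (−0.308 to −0.153). The deviations were taken from the mean of each group of 3. A replicate 2 midway between the others could thus stay under 0.1, so this rule cannot decide whether the numbers pair. Whether libraries of the same number share a batch was not tested. With the replicate block, 12 members were called in shLMO2-1 and 9 in shLMO2-2, with 20 pathway genes in shLMO2-2 and 4 between the hairpins. The shares of all genes called are not given for the block, the changed filters, DESeq2 or the fits of only the groups compared. The counts under these settings are therefore not a result about the members or the pathway list. Under it WNT7B (adjusted p = 0.0203 and 0.0254), LRP5 (0.0192 and 0.0288) and TCF7 (0.0258 and 0.023) passed in shLMO2-1 and shLMO2-2, FZD2 (0.0123) and LMO2 (0.0417) in shLMO2-1, and DKK1 (0.0185) in shLMO2-2. WNT7B (0.00933), FZD2 (0.0127) and DKK1 (0.021) also passed in the mean. Total-count scaling shifted the median of all genes by −0.036, −0.049 and −0.045. The cause of these changes was not tested. Depth limits WNT5A (29 to 60 counts) and WNT10A (71 to 200) most among the called members, and says nothing of members at 0 beyond their not being detected.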
